A study of Mus musculus with 9 samples.

Results

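Rad51b and 3 genes of the Zfp36 family, Zfp36l1, Zfp36l2 and Zfp36, were examined through every H3K27ac and H3K4me1 peak that overlapped their gene bodies or the 100 kb on either side. These windows held 1513 of the 848955 peaks in 8 deposited lists: 1005 at Rad51b, 199 at Zfp36l1, 198 at Zfp36l2 and 111 at Zfp36. Rad51b was chosen from the measured values, for its long run of distal peaks in the pooled H3K27ac list, and Zfp36l1 as the next gene along that run. Coverage of Rad51b and of the Zfp36l1 window is therefore given as a description with no test, and tests were made only at the promoters of the Zfp36 genes and in the windows of Zfp36l2 and Zfp36.

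Primary muscle cells of the oviduct were taken from WT mice aged 8 to 12 weeks on D2 of pregnancy, with 3 replicates of H3K27ac, 3 of H3K4me1 and 3 of IgG. In ChIC-Seq an antibody carries protein A fused to MNase to its mark, and the fragments cut out there are sequenced, here from 50000 fixed cells a library. The cells had been dissociated with enzymes, passed through a filter, plated for 4 h in 12% charcoal-stripped serum and kept for 2 h in 10% serum before fixation, so all groups shared this exposure to culture. Each mark had 1 list per replicate and 1 list called on its pooled replicates, and the IgG libraries were the controls of those calls.

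H3K27ac marks active promoters and enhancers, and H3K4me1 marks enhancers and the flanks of promoters. The Zfp36 genes encode tandem CCCH zinc finger proteins that bind AU-rich elements in messenger RNAs and bring in the CCR4-NOT deadenylase complex, which shortens their poly(A) tails. They are immediate early genes in many cells, and serum is a classical inducer of Zfp36. Rad51b encodes a protein that acts in the repair of DNA by homologous recombination.

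On GRCm38, Rad51b lay on the plus strand at chr12:79297282-79814690, a body of 517 kb. Zfp36l1 lay on the minus strand at chr12:80107754-80113013 and covered 5.26 kb. The 2 genes converged, with their ends 293 kb apart and their start sites 816 kb apart, so that the whole of Rad51b lay downstream of Zfp36l1. No other protein-coding gene lay between them. Zfp36l2 (chr17:84183931-84187947, minus strand) and Zfp36 (chr7:28376784-28380253, minus strand) were as compact as Zfp36l1.

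The sequences at the centre of the comparison are the promoters that the 2 convergent genes start from and the distal stretches that carried both marks in every replicate. The first 2 below are the 250 bases before the RefSeq start sites of Zfp36l1 and Rad51b, on the strand of the gene. The others are the central 300 bases of regions covered in all 6 replicate lists, away from promoters and exons of protein-coding genes, taken where the pooled H3K27ac fold enrichment was highest in the left and the right part of Rad51b, between Rad51b and Zfp36l1, upstream of Zfp36l1 and in the Zfp36 window, on the plus strand. Capitals mark the letters of 5 searched motifs: TGANTCA of AP-1, GGAATG of TEAD factors, GGGCGG of the GC box, the CRE of CREB factors, and the CArG box of serum response factor, each on both strands.
Zfp36l1 promoter, chr12:80113014-80113263: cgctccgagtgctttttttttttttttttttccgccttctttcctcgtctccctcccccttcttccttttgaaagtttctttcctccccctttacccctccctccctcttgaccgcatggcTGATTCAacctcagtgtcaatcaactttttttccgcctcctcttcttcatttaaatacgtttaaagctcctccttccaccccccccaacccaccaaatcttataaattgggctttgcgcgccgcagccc
Rad51b promoter, chr12:79297032-79297281: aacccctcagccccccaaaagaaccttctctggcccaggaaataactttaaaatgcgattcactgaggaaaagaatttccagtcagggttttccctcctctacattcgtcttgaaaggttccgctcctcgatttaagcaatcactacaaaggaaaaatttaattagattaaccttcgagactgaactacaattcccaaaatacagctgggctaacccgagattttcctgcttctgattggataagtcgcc
Rad51b intron 7, left, chr12:79465750-79466049: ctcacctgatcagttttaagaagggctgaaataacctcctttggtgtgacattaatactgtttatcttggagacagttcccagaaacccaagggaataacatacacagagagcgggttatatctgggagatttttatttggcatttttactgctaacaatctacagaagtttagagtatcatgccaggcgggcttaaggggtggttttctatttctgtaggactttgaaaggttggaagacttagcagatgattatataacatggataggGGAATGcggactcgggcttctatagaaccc
Rad51b intron 7, right, chr12:79598574-79598873: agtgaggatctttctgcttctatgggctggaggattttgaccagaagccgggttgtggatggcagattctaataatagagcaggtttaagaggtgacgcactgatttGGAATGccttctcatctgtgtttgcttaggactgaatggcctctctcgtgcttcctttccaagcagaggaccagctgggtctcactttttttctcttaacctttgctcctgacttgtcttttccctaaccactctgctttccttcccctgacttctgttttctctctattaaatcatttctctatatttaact
Between Rad51b and Zfp36l1, chr12:79949169-79949468: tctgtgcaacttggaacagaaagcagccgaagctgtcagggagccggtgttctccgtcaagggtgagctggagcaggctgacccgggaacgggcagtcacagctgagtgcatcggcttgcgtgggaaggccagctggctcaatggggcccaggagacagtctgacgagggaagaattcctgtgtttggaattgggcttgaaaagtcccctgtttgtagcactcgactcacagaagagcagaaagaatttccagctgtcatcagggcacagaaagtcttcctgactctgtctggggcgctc
Upstream of Zfp36l1, chr12:80131763-80132062: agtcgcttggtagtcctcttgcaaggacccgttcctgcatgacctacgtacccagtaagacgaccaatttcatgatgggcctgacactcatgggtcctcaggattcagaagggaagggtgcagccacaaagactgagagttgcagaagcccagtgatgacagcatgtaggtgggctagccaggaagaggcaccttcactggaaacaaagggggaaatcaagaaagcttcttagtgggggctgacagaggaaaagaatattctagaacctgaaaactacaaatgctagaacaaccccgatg
Upstream of Zfp36, chr7:28383119-28383418: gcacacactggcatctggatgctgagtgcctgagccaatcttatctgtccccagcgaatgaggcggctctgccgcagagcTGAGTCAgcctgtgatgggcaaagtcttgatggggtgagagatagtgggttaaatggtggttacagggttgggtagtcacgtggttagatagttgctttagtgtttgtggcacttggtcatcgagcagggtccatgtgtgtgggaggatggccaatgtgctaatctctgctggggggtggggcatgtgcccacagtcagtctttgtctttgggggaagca

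The Zfp36l1 promoter held 1 AP-1 match, 129 bp before the start site, and no other searched motif. AP-1 letters occurred in 6.75% of the 32851 RefSeq promoter windows of the same length. The Rad51b promoter held none of the 5 motifs and was 42.8% G and C, against a median of 52.4% over all promoters. The RefSeq promoter of Zfp36, whose letters are not shown because they fall in the first exon of its longer transcript, held a GC box and a CArG box that started 63 and 58 bp before the start site and shared 1 base. These letters occurred in 32.7% and 1.47% of all promoter windows. Zfp36l2 had no entry in the RefSeq table. In the distal sequences printed above, each Rad51b stretch held 1 TEAD match and the stretch upstream of Zfp36 held 1 AP-1 match, while the stretches on either side of Zfp36l1 held none.

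The labelled cell type was checked at the promoters of marker genes. H3K27ac peaks lay at 3 of 8 smooth muscle promoters in all 3 replicates, namely Acta2, Des and Smtn, while Myh11, which encodes the smooth muscle myosin heavy chain, had an H3K27ac promoter peak in 0 of 3. All 8 stromal and fibroblast markers had such peaks, as did 0 of 8 epithelial, 2 of 8 blood, 1 of 6 endothelial and 1 of 4 mesothelial markers. Over all 21938 protein-coding genes the share was 46%. H3K4me1 lay at 4 of 8 smooth muscle promoters in all 3 replicates, against 27.9% over all genes. The median share of promoter under pooled H3K27ac and H3K4me1 was 36.4% and 36.0% over the smooth muscle markers, and 23.3% and 11.5% over all genes. Over the stromal markers H3K4me1 lay at 7 of 8 promoters and the medians were higher, at 100% and 50.2%. The makeup of the cells was not tested against the results at these loci. The replicate calls rested on 40551842 to 78891920 treatment fragments and 3110985 to 3713369 IgG fragments. H3K27ac replicate 1 stood apart with 152889 peaks against 99035 and 93684 in replicates 2 and 3, and its peaks covered 6.28% of the effective genome against 4.45% and 3.96%.

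Along Rad51b, pooled H3K27ac peaks covered 262 kb, or 50.7% of the gene body, in 107 peaks. The replicate lists covered 38.5%, 45.1% and 32.3% of the body with H3K27ac and 38.7%, 47.5% and 41.6% with H3K4me1. The marks overlapped in their range, and both lay far above the genome. Pooled H3K27ac covered Rad51b 11.7 times as densely as the effective genome, and pooled H3K4me1 7.25 times. In the replicates the marks overlapped in this measure, at 6.13, 10.1 and 8.16 times for H3K27ac and 6.44, 8.10 and 7.39 times for H3K4me1. By covered length in pooled H3K27ac, Rad51b ranked 2nd of all 21938 protein-coding genes, and its rank was 3, 1 and 2 in replicates 1, 2 and 3. Among the 652 protein-coding genes with a body of 0.5 to 2 times its length, where the median covered share was 1.20% in pooled H3K27ac and 5.48% in pooled H3K4me1, Rad51b ranked 2nd and 6th.

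**Figure D1:**
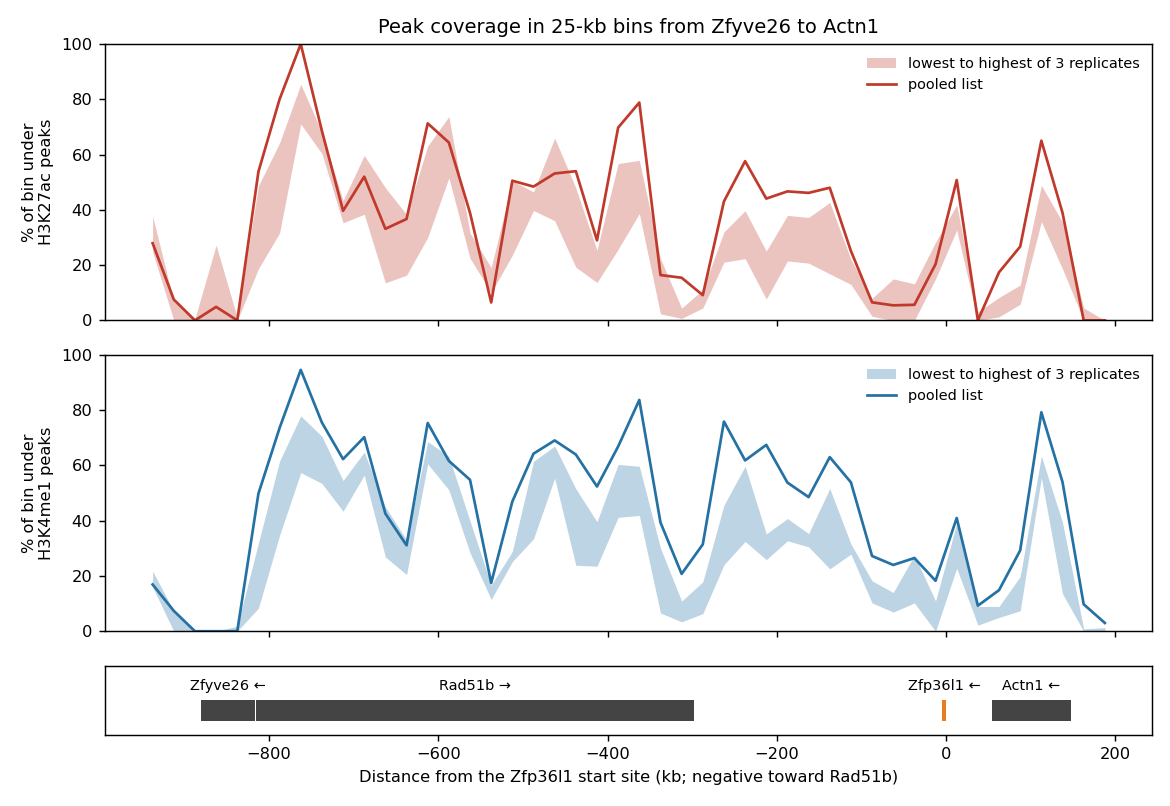
Share of each 25-kb bin under H3K27ac peaks (top) and H3K4me1 peaks (middle), by distance from the Zfp36l1 start site in kb, with gene bodies and their direction below. Lines are the pooled lists and bands run from the lowest to the highest of 3 replicates. Both marks rise at the Rad51b start, reach 100% and 94.6% of a bin in the pooled lists 763 kb left of Zfp36l1, dip at the end of Rad51b, rise again in the interval and fall over the last 100 kb before Zfp36l1.

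The median fold enrichment of the pooled H3K27ac peaks in the Rad51b window was 1.86, at percentile 59.6 of the whole list, and the medians of replicates 1, 2 and 3 lay at percentiles 86.5, 72.2 and 74.2 of their own lists. The mean pileup of the pooled peaks was 7.33 times the mean coverage of the genome. The mean pileup in the Zfp36l1, Zfp36l2 and Zfp36 windows was higher, at 10.4, 10.3 and 13.0 times. Its longest pooled H3K27ac peak (chr12:79318545-79365923), 21.3 kb into the gene, spanned 47.4 kb and ranked 3rd by length of all 64843 peaks. In replicates 1, 2 and 3 the longest H3K27ac peak of the window was 13550, 16697 and 12847 bp, against 15446, 11742 and 14436 bp in the Zfp36 window, so a peak of that length was seen in the pooled list alone. The highest, at chr12:79595387-79602099 in intron 7, reached a fold enrichment of 2.52, and the highest pooled H3K4me1 peak, chr12:79530252-79537309, one of 2.82. Of the 128 pooled H3K27ac peaks in the window, 61.7% reached 1.3 in -log10 p, and in replicates 1, 2 and 3 the share was 42.0%, 24.6% and 23.1%, so most peaks of the single lists were called at weaker values.

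Of 4 equal parts of the Rad51b body, the first had the highest coverage in every list. In H3K27ac replicate 2 it barely exceeded the second, at 54.7% against 54.2%. The fullest 25-kb bin in pooled H3K27ac, at 100%, lay at chr12:79338014-79363013 and not at the start site. In 4 equal parts of the gene body, from start to end, pooled H3K27ac covered 67.3%, 51.4%, 42.8% and 41.1%. The last of the 4 was the lowest in each of the 3 H3K27ac replicates (22.7%, 29.5% and 16.1%) and in each of the 3 H3K4me1 replicates (28.0%, 38.9% and 30.1%). In pooled H3K4me1 the third was the lowest, at 50.7% against 52.9% in the last. Intron 7, the longest at 330 kb, and intron 8, at 109 kb, carried pooled H3K27ac over 52.4% and 56.98% of their length, whereas introns 9 and 10 carried it over 17.6% and 6.61%. Coverage rose at the start of Rad51b. In the first 50 kb of the gene the H3K27ac replicates covered 54.3%, 51.6% and 37.9%, against 18.6%, 3.12% and 2.63% in the 50 kb before it, where Zfyve26 lies head to head with Rad51b. Over 25 kb on either side the rise was smaller in replicate 2, from 6.23% to 16.8%, than in replicates 1 and 3, from 10% to 47.8% and from 5.26% to 31.8%.

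Requiring agreement between replicates shortened the covered length. Sequence under H3K27ac in at least 2 of 3 replicates came to 189 kb of the body and sequence in 3 of 3 to 75.1 kb, the latter in 85 regions. Of the 107 pooled H3K27ac peaks in Rad51b, 57 (53.3%) had a peak in all 3 replicates and 8 (7.48%) in none, against 39.4% and 8.30% of pooled peaks across the genome. These peaks were also wider, with a median of 1419 bp against 843 bp, and the replicate lists were denser in Rad51b. Wider peaks in denser lists meet more often, so the shares do not measure better agreement. Sequence under both marks in all 6 replicate lists made up 10.9% of the Rad51b body and 0.544% of the effective genome. Among the largest pauses, a pooled H3K27ac gap of 15.1 kb (chr12:79561394-79576524) overlapped one of 12.4 kb in pooled H3K4me1 that began at 79561376, and 72.3% of its bases were repeat-masked in the reference against 25.1% of the Rad51b body. What repeats contributed to the gap was not tested.

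In the pooled lists, 87.2% of the Rad51b sequence under H3K27ac was also under H3K4me1, and 76.0% of the H3K4me1 sequence under H3K27ac. Across the genome the shares were 76.3% and 41.2%. Lists share more bases where they cover more, and pooled H3K4me1 covered 58.1% of Rad51b against 8.02% of the effective genome. The higher shares in Rad51b, and the higher indices below, are therefore no measure of closer agreement there. The overlap of single lists moved with the IgG library they were called against, as named in the file headers. Pairs of lists of different marks with the same IgG library had Jaccard indices, the shared bases over the bases in either list, of 0.581, 0.698 and 0.595 in Rad51b. The 6 pairs with different IgG libraries ranged from 0.371 to 0.448. Those values did not overlap, and across the genome the same split gave 0.296 to 0.328 and 0.188 to 0.216. The H3K27ac replicates, each with its own IgG library, matched each other at 0.384 to 0.400 in Rad51b, and the H3K4me1 pairs with different IgG libraries at 0.446 and 0.501. Across the genome the H3K27ac pairs lay at 0.224 to 0.264, above the pairs of different marks with different IgG libraries. The part of the control in the shared peaks was not tested.

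**Figure D2:**
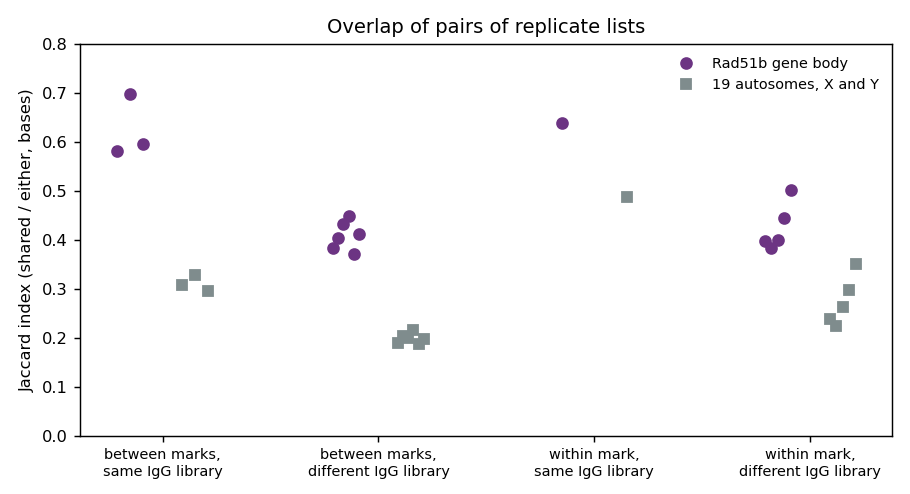
Jaccard index of each pair of replicate lists in the Rad51b gene body (circles) and on the 19 autosomes, X and Y (squares), split by whether the lists are of the same mark and share an IgG library. Each point is 1 pair. In Rad51b the pairs of different marks with the same IgG library lie at 0.581 to 0.698, above those with different IgG libraries at 0.371 to 0.448. Each pair's index in Rad51b is above its own index across the genome, where the lists cover far less of the sequence and so share less.

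The peaks went on past the end of Rad51b and thinned out before Zfp36l1. In the 293 kb between the genes, the H3K27ac replicates covered 20.3%, 21.7% and 15.5%, and the H3K4me1 replicates 23.8%, 29.4% and 25.9%. Every H3K4me1 list thus exceeded every H3K27ac list in this interval, which is given without a test. In gene windows, a different set of stretches, this order held at 16.2% of all genes. In the pooled lists the values were 29.3% and 47.1%. The first 100 kb past Rad51b held pooled H3K27ac over 39.0%, and the last 100 kb before the 3' end of Zfp36l1 over 7.35%. In that last stretch the H3K27ac replicates covered 11.9%, 9.62% and 4.99%, below each of their own values past Rad51b, which were 22.1%, 20.6% and 19.9%.

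When pooled H3K27ac peaks were joined across gaps of up to 12.5 kb, the Rad51b locus formed 2 runs. The first, chr12:79294363-79561393, began upstream of the Rad51b start site, and the second, chr12:79576525-80024157, spanned 448 kb and ended 88.9 kb short of the Zfp36l1 start site. They ranked 3rd and 1st by covered length, 160 kb and 187 kb, among 24358 such runs. In H3K27ac replicates 1, 2 and 3, joined in the same way, the last run of at least 50 kb inside Rad51b ended 337.7, 335.2 and 344.1 kb from that start site. A further run of at least 50 kb in the interval ended 99.6, 98.0 and 163 kb from it, so single lists broke near the end of Rad51b where the pooled list did not. The Zfp36l1 promoter fell in a separate pooled run of 35.8 kb. Between them the largest empty gap was 31.0 kb (chr12:80024158-80055124), of which 25.8% was repeat-masked. The share was 21.1% over the whole interval between the genes and 25.1% in Rad51b, and what repeats contributed to this gap was not tested. In the H3K27ac replicates the largest gap of the interval was 33.0 kb, 40.9 kb and 61.1 kb and overlapped the pooled gap, beginning at 80013385, 80015050 and 80029197. For H3K4me1 the pooled list had no gap over 12.5 kb and formed 1 run of 854 kb from the Rad51b promoter past Zfp36l1, although its longest gap, 12.4 kb, was close to that limit. The H3K4me1 replicates broke at 24.9 kb, 32.4 kb and 15.1 kb in the interval, so this continuity was seen in the pooled list alone.

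**Figure D3:**
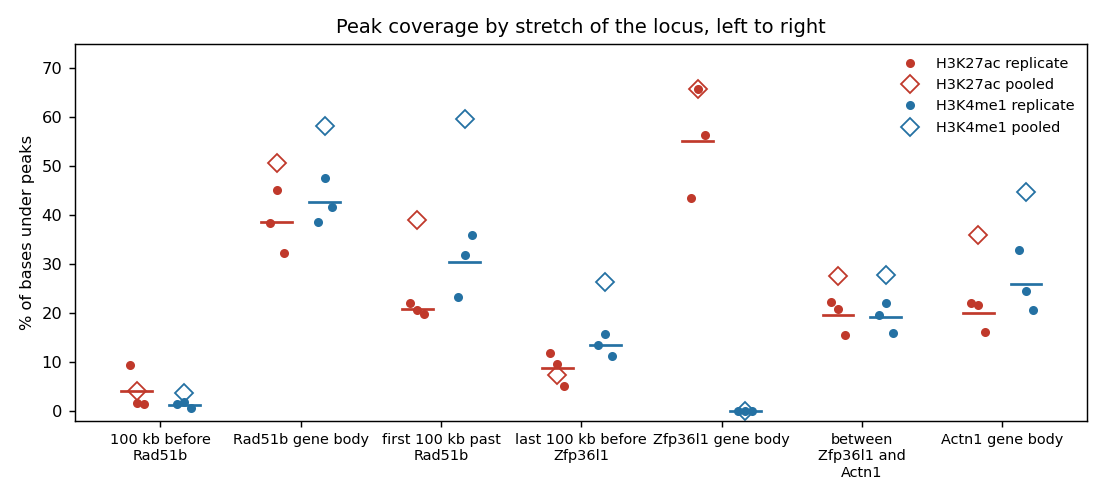
Share of bases under peaks (y axis, %) in consecutive stretches from 100 kb before Rad51b to Actn1. Filled circles are replicates, bars their means and open diamonds the pooled lists, with H3K27ac in red and H3K4me1 in blue. H3K27ac replicates cover 32.3% to 45.1% of Rad51b, 4.99% to 11.9% of the last 100 kb before Zfp36l1 and 43.6% to 65.7% of the Zfp36l1 body, where H3K4me1 covers 0%.

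At the body of Zfp36l1 the marks separated, as they did in either direction at 4806 of all 21938 gene bodies. H3K27ac replicates covered 43.6%, 65.7% and 56.4% of the gene body, and no H3K4me1 list had a peak in it. Such absence was common. Genes without H3K4me1 in their body shared rank 14015 of 21938 in the pooled list and ranks 13101, 11984 and 11957 in replicates 1, 2 and 3. Pooled H3K27ac formed 1 peak of 10.3 kb (chr12:80109554-80119867) over the start site, with a fold enrichment of 2.51, at percentile 96.0 of the list. In replicates 1 and 3 this block was split at the start site by 770 bp and 652 bp without a peak, and in replicate 2 it was continuous. H3K4me1 began upstream, with the nearest peak 2.04 kb, 2.13 kb and 1.17 kb from the start site in replicates 1, 2 and 3. A further H3K27ac peak at chr12:80128986-80134016, 15.97 to 21 kb upstream, had the highest fold enrichment of the window, 2.73, at percentile 98.2 of the list. The H3K27ac replicates reached 2.40, 2.24 and 2.68 there and the H3K4me1 replicates 1.79, 1.93 and 2.00, so that both marks were present in all 6 lists on the side of Zfp36l1 that faces away from Rad51b.

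**Figure D4:**
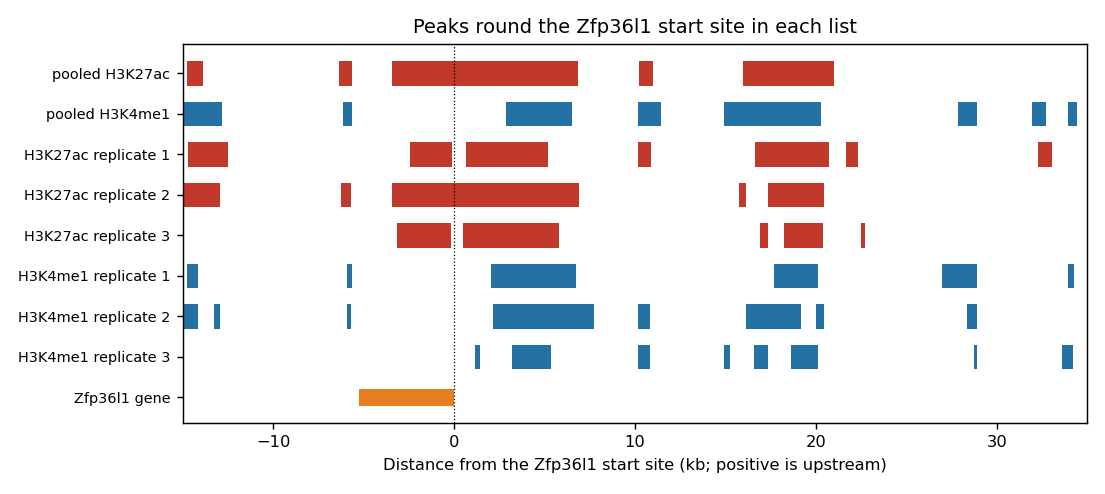
Peaks of each list as bars (rows) by distance from the Zfp36l1 start site in kb, positive upstream, with the gene in orange. H3K27ac (red) flanks or covers the start site in every list, H3K4me1 (blue) begins 1.17 to 2.89 kb upstream, and all lists have peaks between 15.97 and 21 kb upstream.

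The promoters of all 3 Zfp36 genes carried more H3K27ac than H3K4me1. Within 1 kb of the start sites, H3K27ac covered 61.9%, 100% and 67.7% of the Zfp36l1 promoter in replicates 1, 2 and 3 and H3K4me1 covered 0% in each. The groups did not overlap, and the difference of the means was 76.5 percentage points (76.5% ± 20.5 SD against 0%, n = 3 lists a mark; two-sided exact permutation test, p = 0.1, Benjamini-Hochberg adjusted p = 0.358 over all 21938 genes). At Zfp36l2, H3K27ac covered 100% in each replicate and H3K4me1 51.8%, 62.0% and 10.9%, a difference of 58.4 points with the same exact p of 0.1 and adjusted p of 0.358. At Zfp36, H3K27ac again covered 100% in each replicate and H3K4me1 57.9%, 26.0% and 32.7%, a difference of 61.1 points with the same exact p and adjusted p. With 20 assignments of 6 lists the smallest p is 0.1, so no gene could pass 0.05. The lists were not independent. H3K4me1 replicates 1 and 2 and H3K27ac replicate 2 were called against IgG library 2, and replicate 3 of each mark against library 3. Every H3K27ac list lay above every H3K4me1 list at 3 of 3 Zfp36 promoters, and at 26.2% of all promoters. The Rad51b promoter was of the same kind, with H3K27ac over 100%, 55.6% and 68.7% and H3K4me1 over 0%, 19.9% and 20.9%, given without a test.

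H3K27ac peaks touched the promoters of all 4 genes in every H3K27ac list, as they did at 46% of protein-coding genes. H3K4me1 peaks touched the promoters of Zfp36l2 and Zfp36 in all 3 lists, the Rad51b promoter in 2 of 3 and the Zfp36l1 promoter in 0 of 3, where the share of genes with a peak in all 3 was 27.9%. Both marks in all 3 lists were thus found at Zfp36l2 and Zfp36, and at 24.3% of genes. Zfp36l1 was the member without H3K4me1 inside 1 kb of its start. How many genes had it in 0 of 3 lists is not given, and the median promoter over all genes was 11.5% under pooled H3K4me1.

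Coverage was also compared over whole windows, which include the promoters and bodies of the genes they hold. In the window of Zfp36, H3K27ac covered 19.4%, 15.2% and 16.3% and H3K4me1 9.28%, 7.59% and 7.12%. The groups did not overlap, with a difference of 8.97 points (two-sided exact permutation test, p = 0.1, Benjamini-Hochberg adjusted p = 0.288), and H3K27ac was higher in this way at 18.5% of all windows. A single pooled H3K27ac peak of 15.7 kb (chr7:28371016-28386686) ran over the whole of Zfp36 and both its flanks, with a fold enrichment of 2.71. That window was the most crowded, with 12 other protein-coding genes, whose own promoters count toward its coverage.

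In the window of Zfp36l2, which also reached Thada, H3K27ac covered 8.87%, 15.2% and 9.19% and H3K4me1 19.2%, 17.2% and 11.4%. The groups overlapped, and the difference of -4.85 points had p = 0.2 in the two-sided exact permutation test (Benjamini-Hochberg adjusted p = 0.437). Without H3K27ac replicate 2 or without H3K4me1 replicate 3 the groups no longer overlapped, at -6.91 and -7.12 points. H3K27ac was below H3K4me1 in every list at 16.2% of all windows, and Zfp36l2 was not among them. Its gene body showed the opposite, with H3K27ac over 76.9%, 58.2% and 76.7% and H3K4me1 over 0.921%, 5.98% and 0%. The marks were apart in either direction at 4806 of 21938 gene bodies. This body, of 4.02 kb, shares sequence with the promoter window of Zfp36l2. The pooled peak at its start, chr17:84184734-84191366, was 6.63 kb long with a fold enrichment of 2.73.

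**Figure D5:**
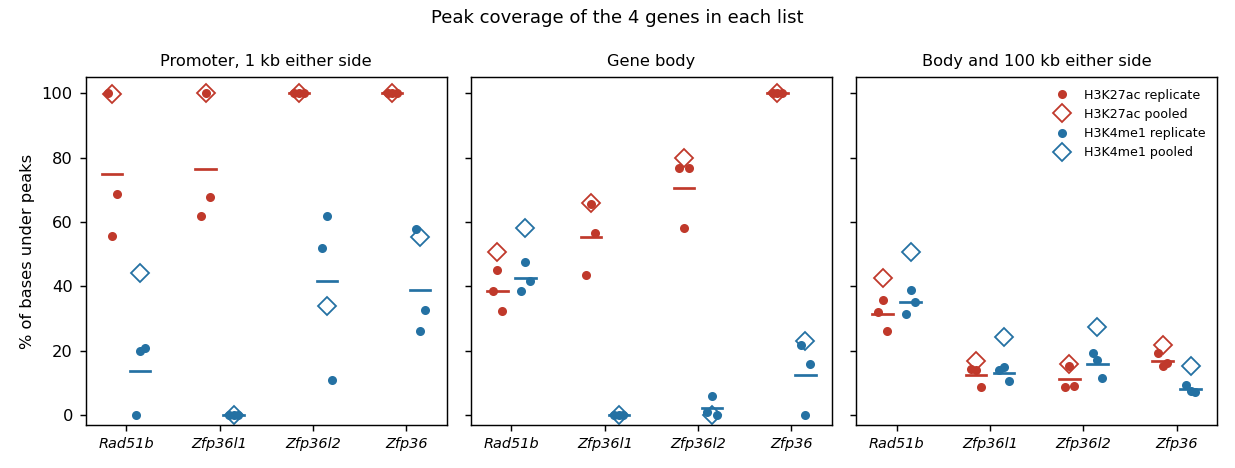
Share of bases under peaks (y axis, %) at the promoters, gene bodies and windows of Rad51b, Zfp36l1, Zfp36l2 and Zfp36. Filled circles are replicates, bars their means and open diamonds pooled lists, with H3K27ac in red and H3K4me1 in blue. The marks part at all promoters and at the 3 Zfp36 bodies, and overlap over Rad51b at 32.3% to 45.1% and 38.7% to 47.5%. Over all 21938 genes they part in either direction at 4806 gene bodies.

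Over whole windows, gene bodies and promoters included, pooled H3K27ac covered 42.6% of the Rad51b window, 16.8% of that of Zfp36l1, 15.8% of that of Zfp36l2 and 21.7% of that of Zfp36, where the median over all genes was 5.45%. Pooled H3K4me1 covered 50.7%, 24.4%, 27.5% and 15.4%, where the median was 8.03%. The H3K27ac replicates of the Rad51b window (32.1%, 35.6% and 26.3%) lay above those of the Zfp36l1 window (14.5%, 14.0% and 8.73%) in each list. Sequence in all 6 lists came to 58.5 kb in 71 regions at Rad51b and to 3.01 kb, 1.90 kb and 3.71 kb at Zfp36l1, Zfp36l2 and Zfp36, in 4, 5 and 4 regions. The Rad51b window is longer, and as a share of each window this was 8.15% against 1.47%, 0.931% and 1.82%. The limit of 100 kb cut through the run. The last pooled H3K27ac peak inside the Rad51b window, which began 0.834 kb before its right edge, had a fold enrichment of 1.67 and the first outside, 2.37 kb beyond, one of 1.91.

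Motif letters were counted in the distal sequence under H3K27ac. Of the 129 distal H3K27ac regions in the Rad51b body, present in at least 2 of 3 replicates, 28.7% held the TEAD letters within 500 bp around their middle, against 25.8% of 63572 such regions in the genome. AP-1 letters were in 12.4% against 20.2%, and CArG boxes in 3.10% against 3.14%. In the 42 regions between Rad51b and Zfp36l1, AP-1 letters were in 26.2% and TEAD letters in 19.05%. The shares moved with the width searched. Within 200 bp, AP-1 letters were in 6.98% of the Rad51b regions, 11.9% of those in the interval and 8.66% of all distal regions, and within 1000 bp in 27.1%, 40.5% and 35.3%. For TEAD letters in Rad51b the order turned, with 10.8% against 11.2% within 200 bp and 40.3% against 44.4% within 1000 bp. In the interval it turned as well, with 16.7% within 200 bp and 47.6% within 1000 bp, above all distal regions. These shares were not tested.

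Within 1 Mb of Rad51b lay 22 protein-coding genes besides Rad51b and Zfp36l1. Of these, 12 had an H3K27ac promoter peak in all 3 replicates, where the share over all genes was 46%, and 5 had H3K4me1 in all 3, where it was 27.9%. In 4 of them neither mark was found in any replicate. Actn1, which encodes the actin crosslinker alpha-actinin-1 and is the next gene upstream of Zfp36l1, had H3K27ac in 3 of 3 lists and pooled H3K27ac over 35.9% of its body. Susd6 was the one neighbour with a larger covered share than Rad51b apart from Zfp36l1, at 61.7%. Zfyve26, which shares the promoter region of Rad51b, had pooled H3K27ac over 4.95% of its body, and Fam71d, Galnt16, Rdh12 and Ccdc177 had no promoter peak in any replicate list. The genes of 0.5 to 2 times the length of Rad51b whose body coverage over the 6 replicate lists was nearest to its own were Tcf4, Cmss1, Cped1, Tcf12 and Bnc2, at Euclidean distances of 11.6, 16.1, 23.0, 25.1 and 26.3 percentage points. Pooled H3K27ac covered 45.2%, 40.8%, 31.6%, 35.4% and 17.6% of their bodies.

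Genes that act with or through the Zfp36 proteins were read at their promoters. Of 15 genes of CCR4-NOT and its adaptors, 14 had H3K27ac in all 3 replicates and 10 had both marks in all 3, among them Cnot2, Cnot4 and Cnot6. Over all genes the shares were 46% and 24.3%. All 8 genes of other AU-rich element binding proteins had H3K27ac, and 3 of them, Elavl1, Rc3h1 and Rc3h2, had both marks. Elavl1 encodes HuR, which stabilises messages that Zfp36 proteins destabilise, and Rc3h1 and Rc3h2 encode the roquins. Of 16 genes whose messages carry AU-rich elements, 7 had H3K27ac in all 3 replicates, near the 46% of all genes. Ptgs2, the inducible prostaglandin synthase, had both marks in every list with pooled H3K27ac over 100% of its promoter, while Csf2, Il1b and Il3, which encode cytokines of blood cells, had none in any list. The median share of promoter under pooled H3K27ac was 99.8%, 60.9% and 38.1% in the 3 lists in this order, against 23.3% over all genes.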

How the data were processed

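Peak lists from ChIC-Seq of H3K27ac and H3K4me1 were used, 3 replicates and 1 pooled list each; the 3 IgG samples had no list of their own. The submitters' processing notes name cutadapt, Bowtie2 and GRCm38.p5. Per the file headers, the authors called broad peaks with MACS 2.2.7.1 on paired fragments, with p limits of 0.05 and 0.1 for strong and weak regions and IgG as control, scaling the larger library to the smaller. Treatment libraries held 11.3 to 25.2 times as many fragments as their controls, so depth differed within every call. The deposited columns hold the mean pileup of a peak (a coverage signal), its -log10 p-value and its fold enrichment over the control. The lists hold no reads, and sequence without a peak has no value.

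Peak coverage, the share of bases under peaks, was computed for gene bodies, for windows of 100 kb either side and for promoters within 1 kb of GENCODE M21 start sites. H3K27ac and H3K4me1 lists were compared by a two-sided exact permutation test over all 21938 protein-coding genes with Benjamini-Hochberg adjustment. The labels do not say that replicates came from separate mice, so p-values measure the spread between these samples, which may be technical, and the marks differ in antibody as well as in mark. Genes named were the 4 members, genes within 1 Mb of Rad51b, up to 3 genes of each pathway list with both marks in all replicates or none in any (at most 12), and the 5 genes nearest to Rad51b in coverage; others named in a sentence were chosen after their values were seen. One further gene list is not reported here. The members and lists were chosen with earlier results of these data known. Promoter sequences came from RefSeq and others from the GRCm38 genome. Scripts used Python 3.11.15, numpy 2.4.6, pandas 2.3.3 and matplotlib 3.10.9 and were tested on simulated data. Alternatives covered promoter width, flank, peak strength, joining distance, single replicates, the replicate block and the IgG library.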

Additional observations from a re-analysis of the deposited data

How the results depend on the processing

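The promoter differences of Zfp36l1, Zfp36l2 and Zfp36 and the window difference of Zfp36 kept their direction and their separation under each alternative run. Leaving out 1 list moved them to 64.8 to 83.86, 43.1 to 68.62, 54.65 to 70.62 and 7.757 to 9.88 points. Their size depended on the width. The Zfp36l1 promoter difference was 48.33 points within 250 bp, and the Zfp36 window difference was 87.48 in the gene body alone, 15.21 with flanks of 50 kb and 4.528 with 200 kb. Of the tested differences, the window difference of Zfp36l2 was the least stable. It turned to 68.31 points in the gene body alone, and the marks separated at -6.026 with flanks of 200 kb. Every difference between lists with the same IgG library was negative, with a mean of -2.607 once lists were averaged within each library. Every difference in the replicate block was negative too, at a mean of -4.85, while leaving out 1 list gave -7.118 to -3.212. With peaks of -log10 p of at least 1.3 it shrank to -0.8138 (exact permutation p = 0.7). In the block the smallest p that 3 pairs allow is 0.25. Deviations of same-numbered lists correlated at -0.1137, 0.2814 and 0.4489, and the 2 positive pairs also shared an IgG library. H3K27ac replicate 2 and H3K4me1 replicate 1, of unlike number but with the same IgG library, correlated at 0.3573. These values do not settle whether replicate numbers pair the lists. The Zfp36l1 window difference, -0.831 points in the main setting, moved to 55.25 in the gene body alone and to 2.255 with peaks of -log10 p of at least 1.3. It also turned positive with flanks of 50 kb (1.634), without H3K27ac replicate 3 (0.9965) and without H3K4me1 replicate 2 (0.01088).

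The covered length of Rad51b was 189 kb in at least 2 replicates, 75.09 kb in 3 and 220.3 kb with the stronger pooled peaks. In the replicates the stronger peaks covered a mean of 11.87% of its window with H3K27ac and 15.09% with H3K4me1, against 31.34% and 35.14% with all peaks. The share of its H3K27ac sequence under H3K4me1 was 62.28% between replicate lists with different IgG libraries. The distance to the Zfp36l1 start site, measured from the last joined stretch that touched Rad51b, was 0 kb at the smallest gap that joined them, 303.7 kb when joined across 5 kb, and 307.8, 319.2 and 320.8 kb in the replicate lists. In these last 4 values that stretch was a small group of peaks or a lone peak at the end of Rad51b, cut off from the larger runs, so they do not give the end of the run. Peak lists bound what depth can show, since a stretch without a peak may hold signal below the caller's limit.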
